A study of Mus musculus with 6 samples.

Results

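AP-1 is a family of dimeric transcription factors, and the expression of 10 of its genes was measured in whole skin of mice that lack JunB in the epidermis. The genes are Jun, Junb and Jund, Fos, Fosb, Fosl1 and Fosl2, Batf and Batf3, and Atf3, all 10 found by symbol among the 23951 genes of the deposited table. Skin of 3 JunB dep mice was compared with skin of 3 JunB +/+ littermates, called controls, all of the strain C57Bl/6 and 6 to 7 months old. In JunB dep mice (JunBΔep in the study) Junb is deleted by a Cre under the keratin 5 promoter, which is active in basal keratinocytes, and the study describes the skin sampled from them as lesional. The label JunB +/+ of the controls names no floxed allele. The sources used here do not say whether the controls carried the Cre, which sex each mouse had or which body site was sampled. Poly(A) RNA of each mouse was sequenced, and levels are FPKM, in which the fragments of a gene are divided by transcript length and library size, so that genes can be compared with each other. Replicates are numbered 0, 1 and 2, as in the labels.

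AP-1 proteins share a basic region, which contacts DNA, and a leucine zipper, which holds the dimer together. Jun proteins pair with each other or with a Fos protein, Fos proteins need a partner such as Jun, and BATF proteins lack a transactivation domain of their own and bind with Jun proteins and with IRF4 or IRF8 in immune cells. Many of these genes are immediate early genes, switched on within minutes by growth factors, cytokines or stress. In the epidermis, AP-1 factors control keratinocyte differentiation and the release of inflammatory mediators.

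One library stood apart. In the library labelled JunB dep replicate 0, the keratin 14 gene Krt14 was listed at 0 FPKM beside Krt5 at 3725 FPKM. The mucosal keratin Krt13 was at 1990 FPKM there, against at most 0.367 FPKM elsewhere. All 5 mucosal epithelium markers were highest in that library, with a sum of 3798 FPKM against at most 1.41 FPKM elsewhere. The 6 adipocyte markers summed to 67.5 FPKM there, against 1824 to 13983 FPKM elsewhere. An exact 0 beside at least 3 FPKM in all other mice occurred 7 times in the table, 6 of them in this library, and in none of the 10 genes described here. The 14 skeletal muscle markers summed to 23754 to 32742 FPKM in the controls against 2269 to 5498 FPKM in JunB dep mice, and 10 of them were called lower. Without JunB dep replicate 0 their median log2 fold change was -2.85, against -3.12 with all mice, and 1 of the 14 was called. With the replicate number as a block or the number series of the sample names as a covariate, 0 were called. The same held without any 1 control or JunB dep replicate 1. Without a filter on mean FPKM 3 of the 14 were called, and with a filter at a mean of 1 FPKM 12. The 9 keratinocyte markers summed to 7413 to 13669 FPKM over the 6 libraries. In JunB dep replicate 0 Krt15 was at 80.7 FPKM against 947 to 2388 FPKM elsewhere, beside Krt14 at 0. Yet 4 of the 9 were highest in that library, among them Krt1 at 4466 FPKM against 446 to 958 FPKM elsewhere. Read totals are not in the table, and no counting error can be given. The keratins were picked after their values were seen. In whole skin, fewer cells of a type and less RNA per cell cannot be told apart.

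Of the 10 genes, 0 were called as changed by limma across the 17021 tested genes (adjusted p below 0.05), where 1.38% of all tested genes were called, all lower. At an unadjusted p below 0.05 there was 1 gene, Fosl2, against 7.56% of all tested genes, or 1 gene higher against 1.43% and 0 genes lower against 6.13%. Fosl2 was also the only one of the 10 in which every JunB dep mouse lay above every control, which held for 5.62% of tested genes. None of the 10 had every JunB dep mouse below every control, against 9.16%. In the other 9 genes the groups overlapped. In 7 of the 10 genes the library labelled JunB dep replicate 0 held the highest value of the 6, and this library was the highest for 29.7% of all tested genes. Junb, Fos, Fosl1, Fosl2 and Batf exceeded their control mean by at least 1 on the log2 scale there, 5 of 10 genes against 11.5% of tested genes, and 0 of 10 did so in JunB dep replicate 1 (5.67%) or replicate 2 (2.66%). Without JunB dep replicate 0, 0 of the 10 were called, beside 0.770% of all tested genes (131 genes, 11 of them higher). In that fit 1 of the 10, Junb, had an unadjusted p below 0.05, beside 8.10% of all tested genes.

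**Figure D1:**
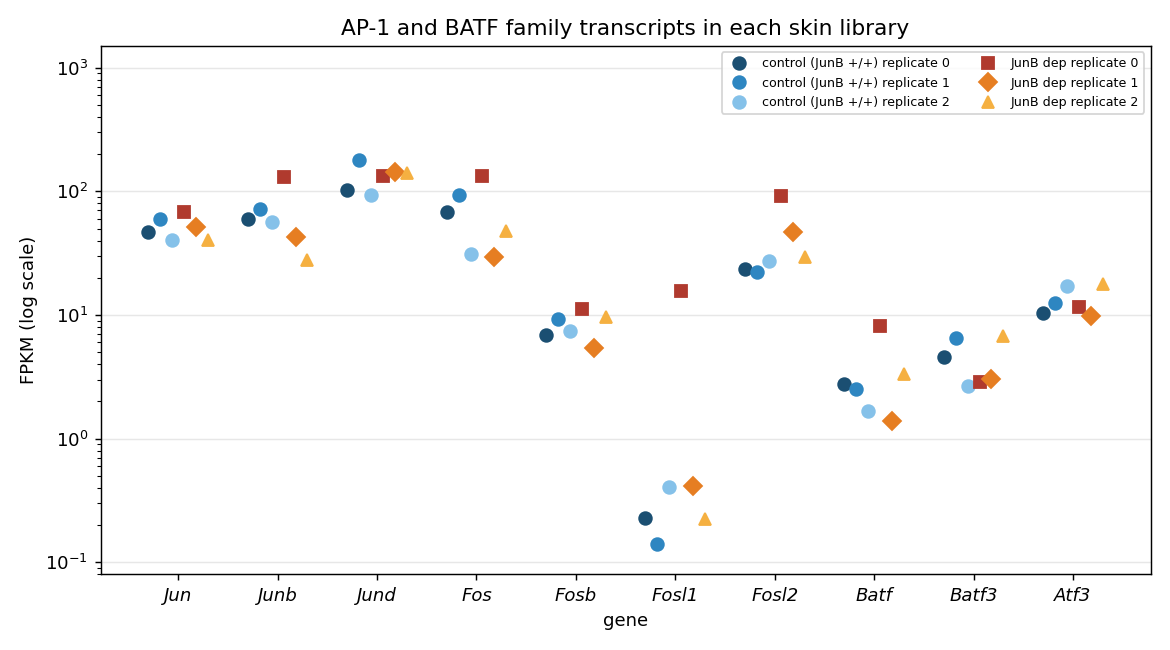
FPKM of the 10 AP-1 and BATF family genes (log axis) in each of the 6 libraries, with controls as circles and JunB dep mice as a square (replicate 0), a diamond (replicate 1) and a triangle (replicate 2). Fosl1 was at 15.6 FPKM in JunB dep replicate 0 and at most 0.414 FPKM in the other libraries, while Jund stayed between 93.3 and 180.4 FPKM.

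The Jun proteins are the core partners of AP-1, and JunB can act against c-Jun at some promoters. Junb (ENSMUSG00000052837.4), the deleted gene, has 1 exon and lies on the minus strand of chromosome 8 from 87500811 to 87502617 on mm9. Sequence upstream of Junb and Jun is shown because these are the deleted gene and the gene of c-Jun, in both of which the library labelled JunB dep replicate 0 was highest. These are the 250 bases before the start of transcription, from RefSeq on GRCm38.p6, both from the minus strand, chr8:84978749-84978998 for Junb and chr4:95052223-95052472 for Jun. Capitals mark TGACG, the core of a cyclic AMP response element, in Junb and TGACATCA, a variant AP-1 site, in Jun.
Junb: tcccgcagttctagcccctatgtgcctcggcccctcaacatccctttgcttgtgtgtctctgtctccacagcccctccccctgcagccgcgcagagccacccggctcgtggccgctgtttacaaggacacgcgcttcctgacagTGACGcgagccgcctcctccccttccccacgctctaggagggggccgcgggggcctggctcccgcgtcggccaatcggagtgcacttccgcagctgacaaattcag
Jun: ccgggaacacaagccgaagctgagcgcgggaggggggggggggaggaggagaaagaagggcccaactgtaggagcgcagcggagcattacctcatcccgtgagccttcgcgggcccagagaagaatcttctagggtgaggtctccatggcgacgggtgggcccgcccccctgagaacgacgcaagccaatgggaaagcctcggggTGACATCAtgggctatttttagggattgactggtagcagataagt

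Control replicates 0, 1 and 2 had 59.3, 72.4 and 56.9 FPKM of Junb, against 129.6, 42.8 and 28.0 FPKM in JunB dep replicates 0, 1 and 2. JunB dep replicates 1 and 2 lay below every control, at 0.681 and 0.446 times the control mean, whereas the library labelled JunB dep replicate 0 lay above every control, at 2.06 times that mean, and so went against its label. The files do not settle whether this library carries the right label or comes from the same kind of skin, and every JunB dep mean and fold change over all 6 mice includes it. Its skeletal muscle markers, at a sum of 2374 FPKM, lay with those of the other JunB dep mice and below every control. Its mucosal epithelium markers, at a sum of 3798 FPKM, and its adipocyte markers, at 67.5 FPKM, lay outside all other mice. These sums do not measure the genotype, and their bearing on the label was not tested. Cells outside the epidermis, which keep Junb, contribute to every library. With all 6 mice the log2 fold change, on the log2(FPKM + 0.5) scale used throughout, was -0.21 with a standard error of 0.55 (95% interval -1.55 to 1.13, adjusted p = 0.901 from limma). Without that library it was -0.84 with a standard error of 0.23 (95% interval -1.44 to -0.24, unadjusted p = 0.0156 and adjusted p = 0.367 from limma). This fit leaves out the Junb value that went against its label, so it is no independent test of lower Junb. The direction turned without JunB dep replicate 2, at 0.25, and with the number series of the sample names as a covariate, at 0.14. The remaining JunB dep mice were both below all controls in 13.0% of tested genes.

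Jun (ENSMUSG00000052684.3, chromosome 4, 94715725 to 94718913, minus strand) encodes c-Jun, the Jun protein most closely tied to proliferation. Jun was at 47.1, 59.4 and 40.1 FPKM in the controls against 68.1, 51.9 and 40.5 FPKM in JunB dep mice, so the groups overlapped. Its log2 fold change was 0.12 (95% interval -0.49 to 0.73, adjusted p = 0.878 from limma). Jund (ENSMUSG00000071076.4, chromosome 8, 73221638 to 73224515, plus strand) is the Jun gene expressed most constantly across tissues, and it was the most abundant of the 10 in controls. Its values were 103, 180.4 and 93.3 FPKM in the controls against 133, 144 and 141 FPKM in JunB dep mice, which lay inside the control range. The log2 fold change of Jund was 0.21 (95% interval -0.46 to 0.88, adjusted p = 0.797 from limma). The JunB dep mice differed from each other by 1.08 times in Jund and by 4.62 times in Junb, between the highest and the lowest. In the annotation used, each of these genes overlaps a gene on the opposite strand, BC042782 for Jun and Gm11175 for Jund. The library kit keeps the strand, but the sources used here do not say whether the counting used it.

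Shares within a library do not depend on the scaling between libraries. Junb made up 28.3%, 23.2% and 29.9% of the summed Jun, Junb and Jund FPKM in control replicates 0, 1 and 2. In JunB dep replicates 0, 1 and 2 its share was 39.2%, 17.9% and 13.4%. The last 2 lay below every control and the first above every control. The means of 27.1% ± 3.52 (SD, n = 3) and 23.5% ± 13.8 (SD, n = 3) gave an exact two-sided permutation p of 0.7, where 3 mice a group cannot give less than 0.1. Without JunB dep replicate 0 the difference was -11.5 percentage points, at an exact permutation p of 0.2, the smallest that 2 mice against 3 can give. This too leaves out the value that ran the other way. Jund had a share of 49.0% to 57.8% in controls and 40.2%, 60.3% and 67.2% in JunB dep mice, while the Jun share was between 19.02% and 22.5% in all 6 mice. The summed Jun family was at 209, 312 and 190.3 FPKM in the controls against 331, 239 and 209 FPKM in JunB dep mice (exact permutation p = 0.5), and the groups overlapped.

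**Figure D2:**
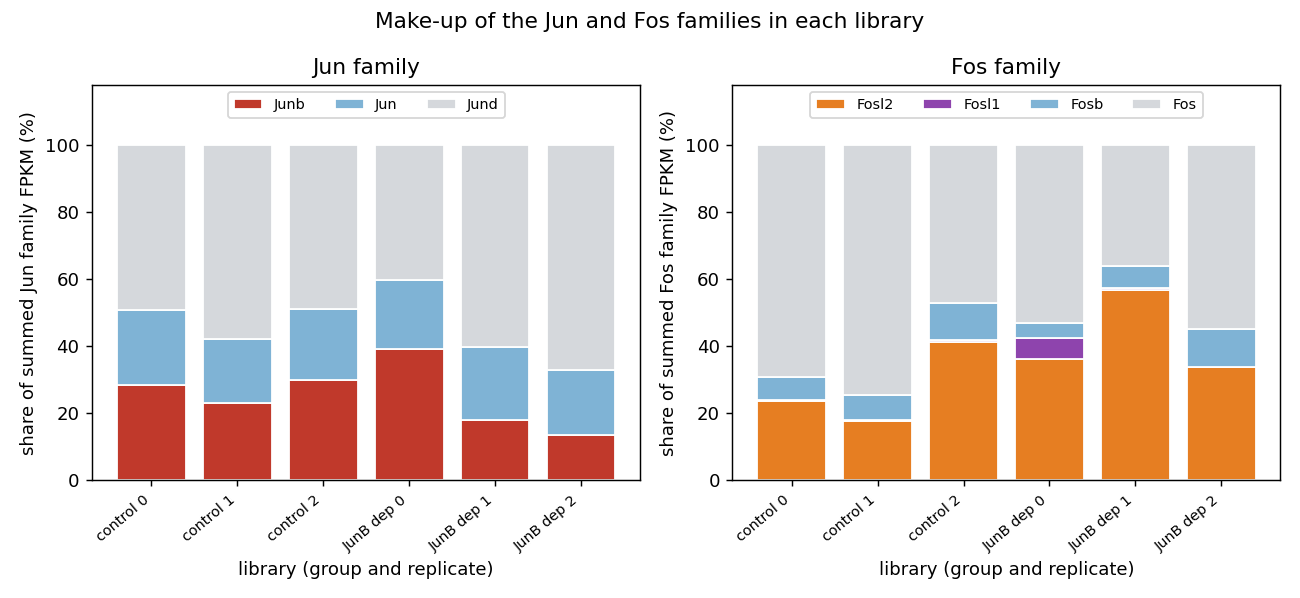
Share of each gene in the summed FPKM of the Jun family (left) and the Fos family (right), in percent, for each of the 6 libraries. Junb made up 39.2% of the Jun family in JunB dep replicate 0 and 17.9% and 13.4% in replicates 1 and 2, and Fosl1 exceeded 1% of the Fos family in JunB dep replicate 0 alone.

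Fos proteins cannot bind DNA as a dimer of their own and act through a Jun partner. Fos and Fosb carry a transactivation domain, which the shorter Fosl1 (Fra-1) and Fosl2 (Fra-2) lack. The bases upstream of Fos, the classical immediate early gene, and of Fosl2, the only gene of the 10 whose groups did not overlap, are shown as above, from the plus strand at chr12:85473640-85473889 for Fos and chr5:32136222-32136471 for Fosl2. Capitals again mark TGACG, which is present 2 times in the Fos window and not in that of Fosl2.
Fos: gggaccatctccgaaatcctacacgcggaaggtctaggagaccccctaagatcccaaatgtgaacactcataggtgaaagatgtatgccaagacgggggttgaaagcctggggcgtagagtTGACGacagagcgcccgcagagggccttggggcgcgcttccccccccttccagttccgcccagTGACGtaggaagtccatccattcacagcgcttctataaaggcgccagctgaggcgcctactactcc
Fosl2: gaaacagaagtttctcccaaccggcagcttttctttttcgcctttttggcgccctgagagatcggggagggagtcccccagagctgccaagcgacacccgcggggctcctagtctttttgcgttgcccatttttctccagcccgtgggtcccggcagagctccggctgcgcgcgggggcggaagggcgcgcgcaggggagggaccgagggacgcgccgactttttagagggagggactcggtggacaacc

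Fosl2 (ENSMUSG00000029135.9, chromosome 5, 32438845 to 32460204, plus strand) was at 23.3, 22.2 and 27.4 FPKM in the controls against 91.3, 46.9 and 29.2 FPKM in JunB dep replicates 0, 1 and 2. All 3 JunB dep mice exceeded all controls, replicate 2 by the least. The controls agreed within 1.23 times of each other and the JunB dep mice within 3.12 times. Its log2 fold change was 1.03 with a standard error of 0.41 (95% interval 0.038 to 2.03, unadjusted p = 0.0440 and adjusted p = 0.639 from limma), which does not pass the adjustment over all genes. Without JunB dep replicate 0 it was 0.60 (95% interval -0.022 to 1.23, adjusted p = 0.641 from limma). That the remaining pair lay above every control follows from all 3 doing so, and such a pair occurred in 11.1% of tested genes. The 9 keratinocyte markers summed to 13669, 7413 and 9086 FPKM in JunB dep replicates 0, 1 and 2 against 7691 to 12058 FPKM in controls, and the 4 keratins of activated keratinocytes to 4025, 1445 and 783 FPKM against 673 to 907 FPKM. In replicate 0 this sum was Krt17 alone, with Krt6a, Krt6b and Krt16 listed at 0. Their part in the Fosl2 values was not tested.

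Fosl1 (ENSMUSG00000024912.5, chromosome 19, 5447703 to 5455945, plus strand) was the least abundant of the 10 in controls and had the largest ratio of highest to lowest value over the 6 mice, 111 times. It was at 0.229, 0.141 and 0.409 FPKM in the controls against 15.6, 0.414 and 0.224 FPKM in JunB dep replicates 0, 1 and 2. JunB dep replicate 0 was thus at 60.1 times the control mean, replicate 1 was just above the highest control, and replicate 2 lay within the controls. The log2 fold change of 1.55 had a standard error of 1.18 (95% interval -1.33 to 4.43, adjusted p = 0.722 from limma). Leaving out replicate 0 gave 0.11. Its share of the summed Fos family was 6.20% in JunB dep replicate 0 and 0.113% to 0.614% in the other 5 mice (exact permutation p = 0.4). Fosl1 overlaps Ccdc85b on the opposite strand, with the same limit as for Jun.

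Fos (ENSMUSG00000021250.7, chromosome 12, 86814840 to 86818223, plus strand) varied more among the controls than the group means differed. Its values were 67.9, 93.3 and 31.4 FPKM in the controls against 134, 29.7 and 47.7 FPKM in JunB dep mice. The highest and the lowest of the 6 values were both JunB dep mice, and the controls differed by 2.97 times. Its log2 fold change was -0.022 (95% interval -1.60 to 1.56, adjusted p = 0.992 from limma). Leaving out 1 mouse in turn gave -0.63 to 0.45, the lowest without JunB dep replicate 0 and the highest without JunB dep replicate 1, and the number series as a covariate gave 0.50. Fosb (ENSMUSG00000003545.2, chromosome 7, 19888070 to 19895394, minus strand), a second immediate early gene, ranged from 6.87 to 9.25 FPKM in controls. It was at 11.1, 5.40 and 9.70 FPKM in JunB dep mice, on both sides of the controls (log2 fold change 0.10, 95% interval -0.64 to 0.84, adjusted p = 0.918 from limma).

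Across the Fos family, the summed level was 98.3, 125 and 66.6 FPKM in the controls against 252, 82.4 and 86.9 FPKM in JunB dep mice (exact permutation p = 0.7). The sum in JunB dep replicate 0 was 2.02 times that of the highest control, and the other JunB dep mice lay within the controls. Fos made up 69.1%, 74.7% and 47.1% of that sum in controls and 53.2%, 36.0% and 54.9% in JunB dep mice (exact permutation p = 0.3). Fosl2 made up 23.7%, 17.8% and 41.2% in controls and 36.2%, 56.9% and 33.7% in JunB dep mice (exact permutation p = 0.3). Control replicate 2 overlapped the JunB dep mice in both shares. The ratio of the Fos sum to the Jun sum was 0.762 in JunB dep replicate 0 and 0.345 to 0.470 in the other 5 mice.

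**Figure D3:**
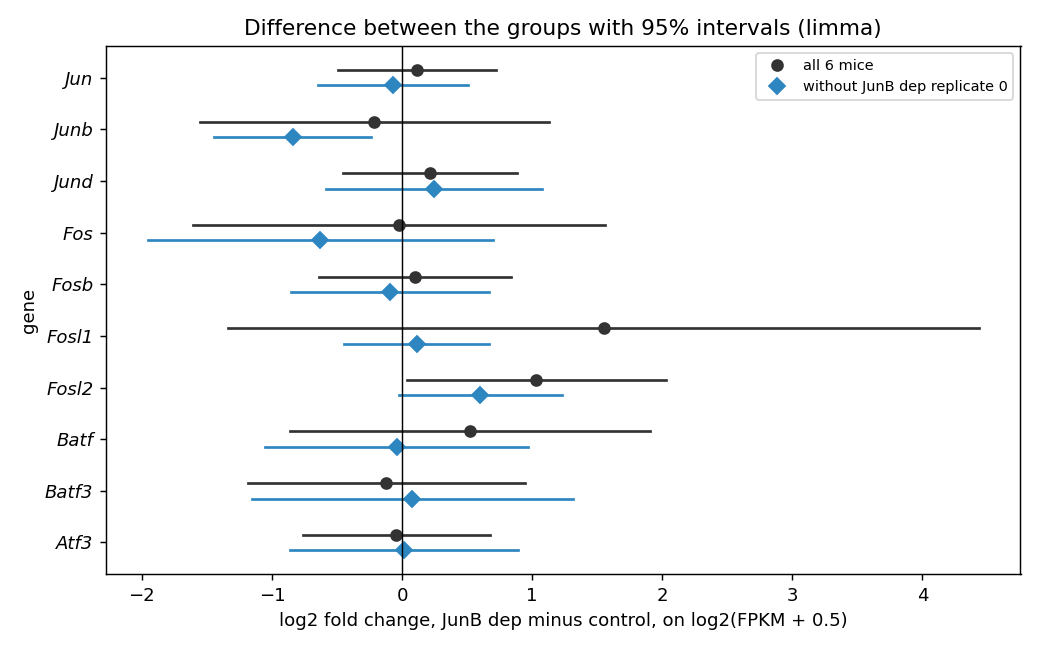
Log2 fold change (JunB dep minus control, on log2(FPKM + 0.5)) of each gene with its 95% interval from limma, with all 6 mice (black circles) and without JunB dep replicate 0 (blue diamonds). With all mice the interval of Fosl2 (0.038 to 2.03) lies above 0. Without JunB dep replicate 0 the interval of Junb (-1.44 to -0.24) lies below 0. That library holds the Junb value that went against its label, so leaving it out is no independent test of Junb. Intervals are not adjusted for the number of genes.

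The BATF factors are known from lymphoid and dendritic cells. Batf, which is needed for Th17 cells, lies on chromosome 12 from 87027619 to 87050037 on the plus strand (ENSMUSG00000034266.5). It was at 2.77, 2.51 and 1.66 FPKM in the controls against 8.16, 1.38 and 3.36 FPKM in JunB dep mice, with JunB dep replicates 0 and 2 above all controls and replicate 1 below them. Its log2 fold change was 0.52 (95% interval -0.86 to 1.90, adjusted p = 0.760 from limma) and -0.041 without JunB dep replicate 0. The 10 T cell markers summed to 27.2 FPKM in that library, inside the 23.1 to 50.8 FPKM of the controls, and 3 of them (Cd4, Cd5 and Zap70) were highest there, while Cd2, Cd3e and Cd3g were below all controls. The 9 neutrophil markers summed to 25050 FPKM there and to 58.8 to 1812 FPKM in the other 5 mice. Of the 25050 FPKM, S100a8 gave 24456 FPKM, with S100a9 listed at 0. Of the 9, 5 were highest in that library, while Il1r2 was below all controls there. Ngp was at 21.6 FPKM there against 195 FPKM in control replicate 0, and Ltf at 4.66 FPKM against 175 FPKM in control replicate 2. The part of these cells in the Batf values was not tested.

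Batf3 (ENSMUSG00000026630.4, chromosome 1, 192922293 to 192932822, plus strand) is required for cross-presenting dendritic cells. It was at 4.56, 6.53 and 2.64 FPKM in the controls against 2.86, 3.06 and 6.78 FPKM in JunB dep mice, of which replicate 2 lay just above the highest control and the others within the controls (log2 fold change -0.12, 95% interval -1.18 to 0.94, adjusted p = 0.930 from limma). The defining markers of those dendritic cells were low in every library, Xcr1 at 0.181 to 0.287 FPKM and Clec9a at 0.185 to 0.733 FPKM. The 12 macrophage and dendritic cell markers were all lower in JunB dep mice in mean log2 value, 0 of them called, with sums of 1128 to 1821 FPKM in the controls against 397 to 958 FPKM in JunB dep mice. Most of this sum was Cd74 and H2-Ab1, and the sum of the other 10 markers overlapped between the groups. It was 118.1, 70.0 and 73.6 FPKM in the controls and 109, 34.4 and 71.4 FPKM in JunB dep mice. Of the 12 markers, 4 lay below all controls in all JunB dep mice: Cd74, H2-Ab1, Flt3 and Xcr1. Flt3 was at 0.971 to 1.58 FPKM in the controls and 0.452 to 0.764 FPKM in JunB dep mice. Xcr1 was at 0.247 to 0.287 FPKM in the controls and 0.181 to 0.221 FPKM in JunB dep mice. Irf4 and Irf8, the partners of BATF, had log2 fold changes of -0.56 and -0.70 (adjusted p = 0.725 and 0.722 from limma), and -0.17 and -0.98 without JunB dep replicate 0. Irf4 was at 2.24 to 3.30 FPKM in the controls against 0.797, 1.32 and 4.16 FPKM in JunB dep replicates 0, 1 and 2, so that replicate 2 lay above all controls and the others below. Irf8 was at 4.47 to 6.08 FPKM in the controls against 4.54, 1.60 and 3.29 FPKM in JunB dep replicates 0, 1 and 2, so that replicates 1 and 2 lay below all controls. The ratio of Batf to the sum of Batf and Batf3 was 74.1% in JunB dep replicate 0 and 27.7% to 38.6% in the other 5 mice.

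Atf3 (ENSMUSG00000026628.8, chromosome 1, 192994175 to 193007219, minus strand), a stress-induced factor that mostly represses, differed least between the groups beside Fos. It was at 10.4, 12.5 and 17.1 FPKM in the controls against 11.6, 9.75 and 17.9 FPKM in JunB dep mice, a log2 fold change of -0.045 (95% interval -0.76 to 0.67, adjusted p = 0.965 from limma). The range within each group was wider than the difference between their means.

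In controls the mean levels fell in the order Jund, Fos, Junb, Jun, Fosl2, Atf3, Fosb, Batf3, Batf and Fosl1, from 125 FPKM to 0.260 FPKM. Of the 9 neighbouring pairs in this order, the control values of 3 overlapped: Fos with Junb, Junb with Jun, and Batf3 with Batf. Junb exceeded Jun in 3 of 3 controls and Batf3 exceeded Batf in 3 of 3, whereas Fos exceeded Junb in 2 of 3.

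Upstream bases of 9 of the 10 genes were in the RefSeq table, all but Fosl1. TGACG or its reverse complement CGTCA was found in the windows of 5 of these 9 (Junb, Fos, Fosb, Batf and Atf3), and in 17.8% of all 32851 windows of the same length. TGACATCA, searched on both strands, was found for Jun alone and in 2.93% of all windows. The consensus AP-1 site TGACTCA was found in 0 of the 9 windows and in 4.46% of all, and TGACGTCA, which contains TGACG, in 0 of the 9 and in 1.55%. A match is a description of the sequence and was not tied to any level measured here.

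Genes around AP-1 were described by lists. Among 10 other factors of the same type, 0 were called, 8 were higher and 2 lower, beside 53.4% higher over all tested genes. Their median log2 fold change was 0.17, and 0.0020 without JunB dep replicate 0, beside 0.031 over all tested genes. Maff, a small Maf protein, had the lowest unadjusted p. It was at 9.19, 12.4 and 10.3 FPKM in the controls against 31.2, 13.9 and 18.3 FPKM in JunB dep mice, above all controls in 3 of 3 mice (log2 fold change 0.89, adjusted p = 0.538 from limma, and 0.57 without JunB dep replicate 0). Batf2 lay below all controls in 3 of 3 JunB dep mice, at 0.353 to 0.575 FPKM against 0.602 to 1.14 FPKM (log2 fold change -0.46, adjusted p = 0.719 from limma).

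The upstream MAP kinases and serum response factors had a median log2 fold change of 0.036 over 18 tested genes (10 higher, 8 lower, 0 called), and -0.079 without JunB dep replicate 0. Mapk10 was below the filter, at most at 0.0176 FPKM. Map2k6, a kinase that activates p38, was at 4.72, 4.02 and 4.18 FPKM in the controls against 0.823, 2.69 and 2.12 FPKM in JunB dep mice (log2 fold change -1.11, adjusted p = 0.462 from limma, and -0.73 without JunB dep replicate 0), and Mapk9, which encodes a JNK, had a log2 fold change of -0.55 (adjusted p = 0.715 from limma). Map2k3 was at 80.5 to 89.2 FPKM in the controls against 89.6, 63.9 and 60.8 FPKM in JunB dep mice, on both sides of the controls.

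Among 9 phosphatases that switch MAP kinases off, 0 were called, with a median log2 fold change of 0.54, and 0.29 without JunB dep replicate 0. Their median log2 difference from the control mean was 0.88, 0.29 and -0.30 in JunB dep replicates 0, 1 and 2. In control replicates 0, 1 and 2 it was -0.15, -0.15 and 0.59, so control replicate 2 lay above JunB dep replicates 1 and 2. Dusp10, which acts on JNK and p38, came closest of all genes on these lists. It was at 9.24, 9.15 and 7.39 FPKM in the controls against 1.52, 3.85 and 2.40 FPKM in JunB dep mice, below all controls in 3 of 3 (log2 fold change -1.62, standard error 0.32, unadjusted p = 0.00226 and adjusted p = 0.108 from limma). Without JunB dep replicate 0 its log2 fold change was -1.35 (adjusted p = 0.141 from limma). Dusp6, an ERK phosphatase and itself a readout of ERK activity, was at 9.55, 11.7 and 19.95 FPKM in the controls against 50.3, 38.6 and 18.7 FPKM in JunB dep mice, overlapping by control replicate 2 (log2 fold change 1.31, adjusted p = 0.483 from limma). Dusp16 was at 13.2 to 13.9 FPKM in the controls against 15.3 to 16.9 FPKM in JunB dep mice (log2 fold change 0.24, adjusted p = 0.722 from limma).

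Genes known as AP-1 targets had most of their high values in the library labelled JunB dep replicate 0. Of 16, 15 had a positive log2 fold change (53.4% of all tested genes), 0 were called, and 14 were highest in that library (29.7%). Measured as log2 difference from the control mean, their median was 3.35 there and -0.088 and 0.064 in JunB dep replicates 1 and 2. Their median log2 fold change was 1.10 with all mice and 0.016 without that library, beside 0.031 over all tested genes. The growth factor gene Hbegf was at 2.97, 3.45 and 3.15 FPKM in the controls against 81.4, 5.52 and 4.16 FPKM in JunB dep mice, above all controls in 3 of 3 (log2 fold change 1.84, adjusted p = 0.722 from limma, and 0.53 without JunB dep replicate 0). Cd44, an adhesion receptor, was at 26.6 to 31.0 FPKM in the controls against 132, 57.5 and 29.9 FPKM in JunB dep mice (log2 fold change 1.11, adjusted p = 0.709 from limma, and 0.56 without that library), and Tgfb1 was at 12.3 to 17.2 FPKM in the controls against 15.4 to 20.7 FPKM in JunB dep mice. The collagenase gene Mmp13 and the granulocyte growth factor gene Csf3, chosen after their values were seen, were at 53.4 and 63.9 FPKM in JunB dep replicate 0 and at most at 0.0753 and 0.123 FPKM in the other 5 mice.

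Immediate early genes outside AP-1 respond to the same stimuli. Of 17 tested, 12 had a positive log2 fold change, against 53.4% of all tested genes, and 0 were called. In JunB dep replicate 0, 11 of the 17 were highest, against 29.7% of all tested genes. The median log2 difference of the 17 from the control mean was 0.84 in that library and 0.094 and 0.070 in replicates 1 and 2. Their median log2 fold change was 0.28, and 0.060 without that library. The orphan receptor gene Nr4a1 lay below all controls in 3 of 3 JunB dep mice, at 30.7, 13.3 and 22.3 FPKM against 32.4, 41.1 and 36.8 FPKM (log2 fold change -0.80, adjusted p = 0.641 from limma). Ier5 was at 21.8 to 23.5 FPKM in the controls against 57.6, 33.1 and 23.6 FPKM in JunB dep mice (log2 fold change 0.66, adjusted p = 0.720 from limma, and 0.31 without JunB dep replicate 0). Klf4, a factor of keratinocyte differentiation, had a log2 fold change of 0.45 (adjusted p = 0.722 from limma, and 0.24 without JunB dep replicate 0).

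**Figure D4:**
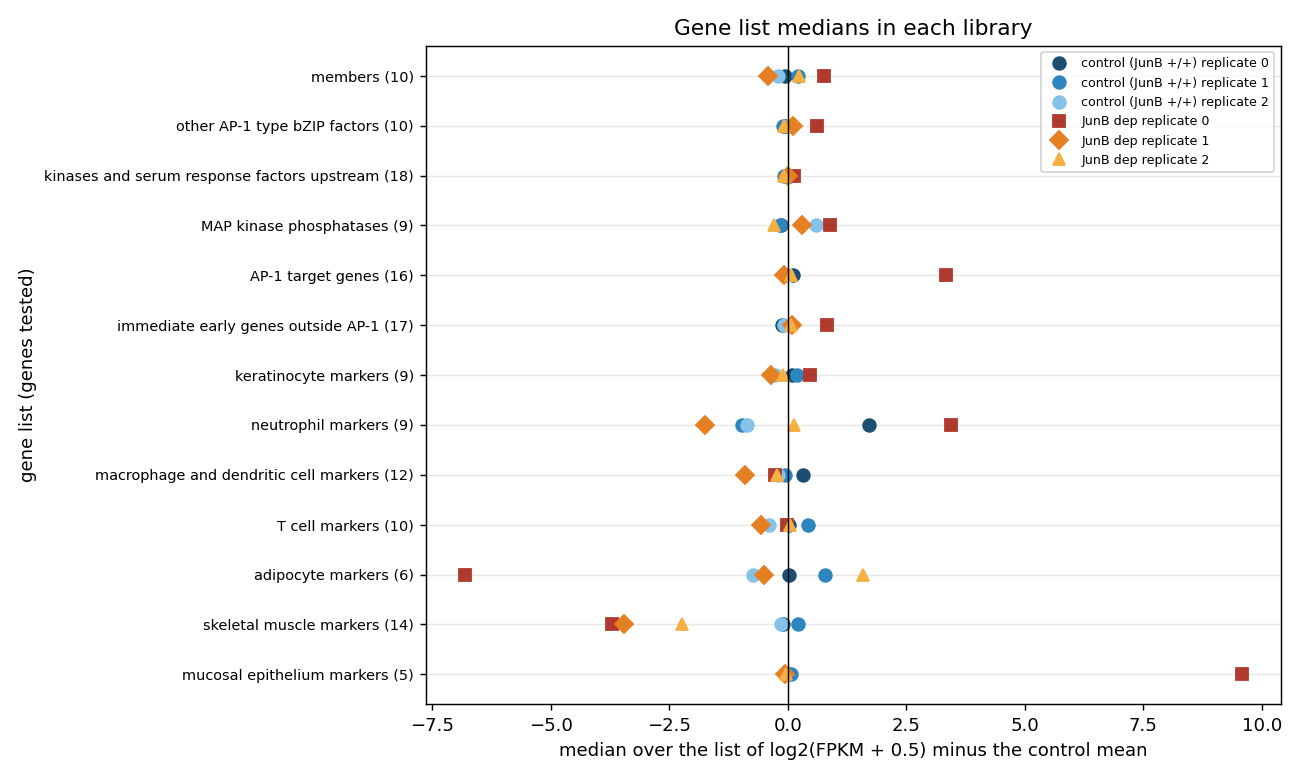
Median over each gene list of log2(FPKM + 0.5) minus the control mean (x axis) in each of the 6 libraries, with the number of genes tested in parentheses. The median of the AP-1 target genes is 3.35 in JunB dep replicate 0 and between -0.088 and 0.10 in the other libraries, and skeletal muscle markers are low in all 3 JunB dep mice.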

How the data were processed

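The authors isolated poly(A) RNA and made TruSeq stranded libraries, and aligned the reads to mm9 with TopHat 2.0.10 and Bowtie 1.0.0. They deposited FPKM values per gene symbol and mouse; Cufflinks is named in the submitters' processing notes without a role, and no source used here says whether libraries were scaled further. The number of reads per mouse is unknown.

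Groups came from the genotype labels. Groups were compared on log2(FPKM + 0.5) by limma 3.58.1, run under R 4.3.3 without a block and with the variance trend on mean level. Its two-sided p-values were adjusted by Benjamini-Hochberg over 17021 genes, those whose mean reached 0.1 FPKM. All 10 genes passed this filter, and none was at 0 FPKM in any mouse. Family sums and shares were compared by exact two-sided permutation tests in scipy 1.17.1. Shares of Jun, Jund and Fosl2, the ratio of the Fos to the Jun sum, and that of Batf to Batf and Batf3 were added after values were seen. Genes named from a list are those called or, failing that, the 3 with the smallest unadjusted p, unless said otherwise; some genes that this rule names are not reported here. Positions are from GENCODE vM1 on mm9 and upstream sequences from RefSeq on GRCm38.p6. The genes and lists were chosen with earlier results of these data known. On simulated data (17021 genes, 200 of them changed, 3 mice a group) limma called 0% of genes with a log2 change of 1, 55.3% of those with 2 and 80.1% of those with 3. The mean number of false calls over 5 runs was 0, 5.2 and 10.4. These percentages hold for the simulated spread and were not worked out for the 10 genes.

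Alternatives were a pseudocount of 0.1 or 1, a filter at 1 FPKM or none, median-ratio scaling, quantile normalization, limma without the trend or with robust estimation, the replicate number as a block, the number series of the sample names as a covariate, an adjusted p of 0.1, and each mouse left out in turn. The series describes the mice as littermates without saying which shared a litter, and p-values measure the spread between these mice.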

Additional observations from a re-analysis of the deposited data

How the results depend on the processing

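None of the 10 genes was called under any of the alternatives tried, including a threshold of 0.1, and the adjusted p of Fosl2 from limma ran from 0.149 to 0.947 over them. The number of genes called over the whole table was 235 and became 0 with the replicate block and 0 with the number series as a covariate, and it ran from 0 to 251 when a mouse was left out (0 without control replicate 0, 1 or 2 or without JunB dep replicate 1, and 131 without JunB dep replicate 0). In this balanced design the replicate block leaves each log2 fold change as it is by construction. The correlations of deviations between same-numbered mice were 0.12, -0.23 and -0.43. Those between differently numbered mice ran from -0.37 to 0.46. With so few mice these values cannot settle whether the numbers pair the mice. With the number series as a covariate, Junb turned to 0.14 and Fos to 0.50 on the log2 scale. Leaving out a mouse moved the log2 fold change between -0.84 and 0.25 for Junb, -0.071 and 0.30 for Jun, -0.63 and 0.45 for Fos, -0.095 and 0.39 for Fosb, -0.041 and 1.06 for Batf, -0.48 and 0.15 for Batf3, and -0.28 and 0.14 for Atf3, while Fosl2 (0.60 to 1.42), Fosl1 (0.11 to 2.35) and Jund (0.031 to 0.50) stayed positive. It moved the difference in the Junb share between -11.5 and 1.42 percentage points, in the summed Jun family between -13.2 and 59.9 FPKM and in the summed Fos family between -12.0 and 72.8 FPKM. The negative sums came without JunB dep replicate 0 and, for Jun, also without control replicate 2 (-1.06 FPKM). The cause of these turns was not tested.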

Other observations

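Genes with the profile most like 3 of the factors were looked for over the 6 libraries, by the mean absolute difference of log2(FPKM + 0.5) after centring each gene on its control mean. Nearest to Junb among 7081 genes were Tuba8 (0.156), Tuba4a (0.176) and Malat1 (0.189), against a median distance of 0.566. Tuba8 and Tuba4a encode alpha-tubulins and Malat1 a nuclear non-coding RNA. Tuba4a had 199, 205 and 209 FPKM in the controls and 314, 132 and 83.9 FPKM in JunB dep replicates 0, 1 and 2, with JunB dep replicates 1 and 2 below and replicate 0 above every control, as for Junb. For Fosl1 the nearest of 13741 genes were Gpr35 (0.138), Slc26a4 (0.166) and Sh2d5 (0.178), with a median distance of 0.965. Gpr35 was at 22.0 FPKM in JunB dep replicate 0 and at 0.385 to 1.17 FPKM in the other 5 mice. For Batf, Rgs1 (0.0945) and Cpne2 (0.121) were among the nearest, with a median distance of 0.615. Rgs1, a regulator of G protein signalling in lymphocytes, was at 1.25, 1.32 and 0.779 FPKM in the controls against 4.74, 0.530 and 1.44 FPKM in JunB dep mice.

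The sample names fall into 2 number series, whose meaning the labels do not give, with JunB dep replicate 0 and control replicates 0 and 1 in the first and the other 3 mice in the second. Within the first series Junb was 0.98 higher in JunB dep on the log2 scale and within the second -0.71. Fosl2 was higher in both, by 1.98 and 0.43. Fosl1 was 4.56 higher in the first and -0.16 in the second. Each series holds a lone mouse of 1 group, so these values were not tested, and JunB dep replicate 0 alone stands for JunB dep in the first.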
